A study of Rattus norvegicus with 4 samples.

Results

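Pax6 and 7 other homeobox transcription factors of the anterior neural plate and eye field were followed across wild-type and Pax6 mutant rat telencephalon. The genes were Pax6, Rax, Six3, Six6, Otx2, Lhx2, Lhx9 and Vax1. Every array probe set whose annotation gave exactly 1 of these symbols was taken, whatever its level, which gave 10 probe sets for the 8 genes, of 14217 genes and 31042 probe sets without controls. Rax and Otx2 had 2 probe sets each. Of the 10, 9 (7 genes) were bright enough to be tested, and the single Lhx9 probe set was dim.

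The study hybridised 4 Affymetrix arrays with RNA of E11.5 telencephalon, the anterior part of the embryonic forebrain. The 2 wild-type arrays and the 2 arrays of Pax6 mutant embryos (rSey2/rSey2) shared the Sprague-Dawley background, the age and the tissue, and no other allele or treatment is named. The design text speaks of 13 telencephalons and a repeat per genotype, so an array stands for pooled embryos. The labels call the arrays biological replicates but name no litters. The p-values therefore rest on array-to-array spread, which may in part be technical. The labels give neither the position of the rSey2 lesion in Pax6 nor whether the optic vesicles were kept with the tissue.

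In the early embryo the anterior neural plate is divided by a small set of transcription factors into telencephalon, eye field and hypothalamus. Pax6 carries a paired domain and a homeodomain and is required for eye formation and for dorsal identity in the telencephalon. Rax, Six3, Six6 and Lhx2 work with it in the eye field, where the optic vesicles form as outgrowths of the forebrain. Otx2 is needed for the forebrain and midbrain as a whole, Vax1 marks the ventral midline and optic stalk, and Lhx9 is a close relative of Lhx2. In bulk tissue such as this, fewer cells expressing a gene and less RNA per cell cannot be told apart.

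The promoters of the related genes Six3 and Six6 are shown because they held the longest run of bases shared by any pair of the promoters. RefSeq promoter windows (build GRCr8) matched 6 of the 8 genes: Pax6, Rax, Six3, Six6, Lhx2 and Vax1. The 250 bases before each start are given 5′ to 3′ on the gene's own strand, with the shared run in capitals. The Six3 window is chr6:14796257-14796506 on the minus strand, and the Six6 window is chr6:97370185-97370434 on the plus strand.
Six3: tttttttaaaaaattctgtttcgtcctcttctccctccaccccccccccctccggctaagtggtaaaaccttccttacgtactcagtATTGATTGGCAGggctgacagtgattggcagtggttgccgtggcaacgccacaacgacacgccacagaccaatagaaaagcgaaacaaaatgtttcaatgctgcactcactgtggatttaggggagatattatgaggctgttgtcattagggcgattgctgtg
Six6: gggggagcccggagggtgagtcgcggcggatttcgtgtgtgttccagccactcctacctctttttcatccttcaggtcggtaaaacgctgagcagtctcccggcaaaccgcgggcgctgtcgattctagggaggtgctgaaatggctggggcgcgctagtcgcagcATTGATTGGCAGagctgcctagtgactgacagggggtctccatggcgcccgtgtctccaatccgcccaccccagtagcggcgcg

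The run ATTGATTGGCAG is 12 bases long and was found by comparing all 15 pairs of the 6 windows in both orientations. It began 163 bases before the Six3 start and 84 bases before the Six6 start. On either strand it occurred in 5 of 33469 RefSeq promoter windows of this length (0.0149%), those of Six3 and Six6 included. It was picked because these windows share it, so its rarity is a description and not a test. The run holds ATTGG, which is the CCAAT box CCAAT read on the other strand. CCAAT on either strand was present in 34% of all windows and, of the 6, in Six3 (3 matches) and Six6 (2 matches). The homeodomain core TAATTA, which reads the same on both strands, was in 4.86% of all windows and in 0 of the 6. GGATTA, the form bound by Otx-type homeodomains, searched on both strands, was in 6.34% of all windows and in 0 of the 6. These letters are descriptions of short windows and say nothing about what binds there. The share of G and C was lowest in Pax6 (42%) and highest in Lhx2 (80.8%), against a median of 51.2% over all windows.

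Values are the log2 GCRMA values that the authors deposited, in which 1 unit is a doubling. Over the whole table limma called 0 of 18625 tested probe sets at an adjusted p of 0.05 (0%), with 680 (3.65%) at an unadjusted p up to 0.05. The lowest value was 2.07 in all 4 arrays, between 5333 and 5462 probe sets per array lay there, and array medians of tested probe sets ran from 8.22 to 8.35. With 2 arrays against 2, an exact two-sided permutation test cannot give a p under 0.333, so none is given for single genes.

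Among the 8 genes, the 2 probe sets of Rax, then Six6, Vax1, Lhx2, Otx2 1375465_at and Six3 had higher means in the mutant, and Pax6 and Otx2 1375394_at had lower means. That is 7 of 9 tested probe sets with higher and 2 with lower means, with a median difference of 0.30 on the log2 scale. Over all tested probe sets 48.8% had a higher and 49.7% a lower mean in the mutant, and the median difference was 0. None of the 9 passed the adjusted threshold (limma, adjusted p = 1 for each), so none of these genes is called as changed. At an unadjusted p up to 0.05, 1 of the 9 was higher (Six6) and 0 were lower, where 1.74% of all tested probe sets were higher and 1.91% lower at that level. Both mutant arrays lay above both wild-type arrays for 4 of the 9 probe sets, and below them for 0, while over all tested probe sets 11.4% lay above and 11.8% below.

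**Figure D1:**
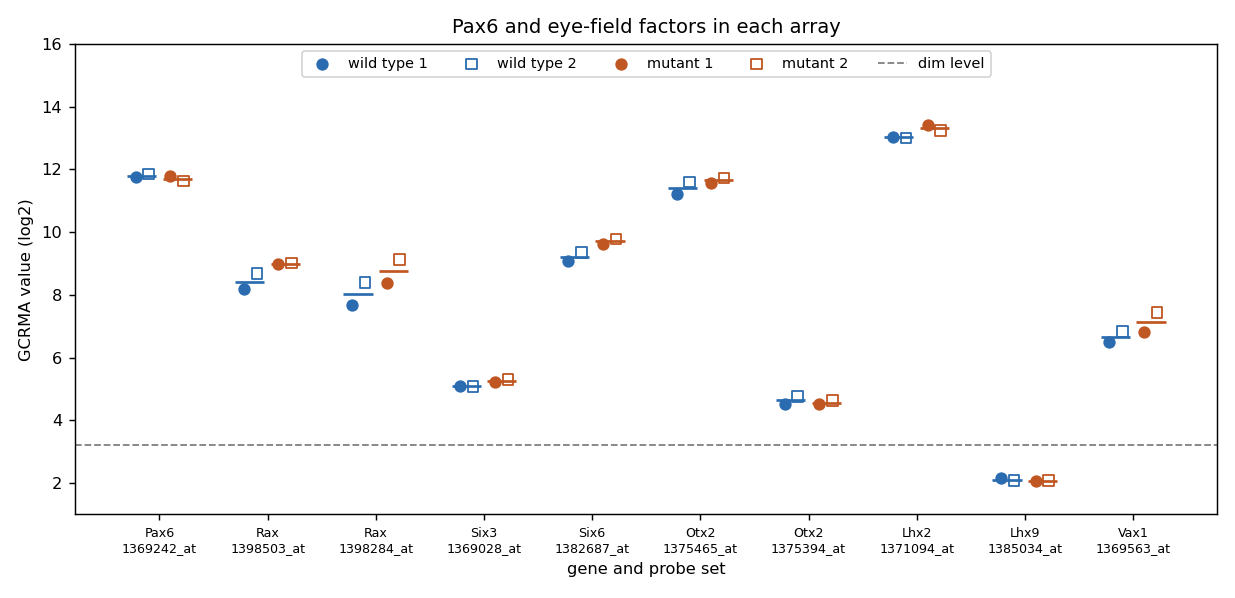
GCRMA value (log2, vertical axis) of the 10 probe sets in each array: filled circles are replicate 1, open squares replicate 2, blue wild type, orange mutant, horizontal bars the mean of 2 arrays and the dashed line the dim level of 3.21. Pax6 is level across the arrays, Rax, Six6 and Lhx2 have higher mutant means, and Lhx9 lies under the dim level in all 4 arrays.

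Pax6, the gene that carries the mutation, was bright and varied least. Wild-type arrays read 11.75 and 11.85, and mutant arrays 11.78 and 11.63. The groups overlapped, since mutant replicate 1 lay between the wild-type arrays and mutant replicate 2 was lowest. The SD over the 4 arrays was 0.09, the smallest of the tested probe sets of these genes. The difference of -0.09 (SE 0.10) had a 95% interval that corresponds to a mutant level between 0.764 and 1.15 times the wild-type level. The difference was -0.02 without mutant replicate 2 and -0.17 without mutant replicate 1. Over all tested probe sets, 52% had a larger difference in size. A transcript probed at an unknown distance from the lesion does not check the genotype labels, and the Pax6 protein was not measured.

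Rax, which encodes a paired-type homeodomain protein of the eye field and the ventral forebrain, showed the largest differences of the 8 genes. In probe set 1398284_at the values were 7.69 and 8.39 in wild type and 8.38 and 9.13 in the mutant. Wild-type replicate 1 was lowest, mutant replicate 2 was highest, and the remaining arrays differed by 0.007, so the groups overlapped at that point. The difference of 0.71 (SE 0.40; 1.64-fold) had a 95% interval from -0.52 to 1.95.

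The second Rax probe set, 1398503_at, ran the same way. Its values were 8.17 and 8.68 in wild type and 8.98 and 9.01 in the mutant, and here both mutant arrays were above both wild-type arrays by at least 0.30. The difference was 0.57 (SE 0.21; 1.48-fold), with an interval from -0.07 to 1.21. Among all tested probe sets, 1.5% differed by more in size than the first and 2.88% by more than the second. Fits that left out 1 array gave between 0.34 (without mutant replicate 2) and 1.09 (without mutant replicate 1) for 1398284_at. For 1398503_at they gave 0.31 when wild-type replicate 1 was left out and 0.82 when replicate 2 of that genotype was.

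Six6 and Six3 encode a closely related pair of sine oculis-class homeodomain proteins of the eye field, retina and ventral forebrain. Six6 was at 9.07 and 9.35 in wild type and at 9.62 and 9.79 in the mutant. The groups did not overlap, with a gap of 0.27 between the lower mutant and the higher wild-type array. The difference was 0.49 (SE 0.14; 1.41-fold), and its 95% interval, from 0.05 to 0.93, was the only one of the 9 that left out 0 (limma, unadjusted p = 0.0369, adjusted p = 1). With 1 array left out it ran from 0.35 to 0.63, and the unadjusted limma p rose to 0.116 when wild-type replicate 1 was left out, to 0.0963 for mutant replicate 1 and to 0.165 for mutant replicate 2. Testing the dim probe sets as well gave 0.0636.

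Six3, which is needed for forebrain formation and represses Wnt signals there, had low values and little spread. It was at 5.09 and 5.07 in wild type and at 5.22 and 5.30 in the mutant. The mutant arrays were again both higher, by at least 0.13. The difference of 0.18 (SE 0.07; 1.13-fold) was small beside that of Six6, but the difference between the genes was not tested. With a pseudocount of 16 on the linear scale it was 0.12.

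**Figure D2:**
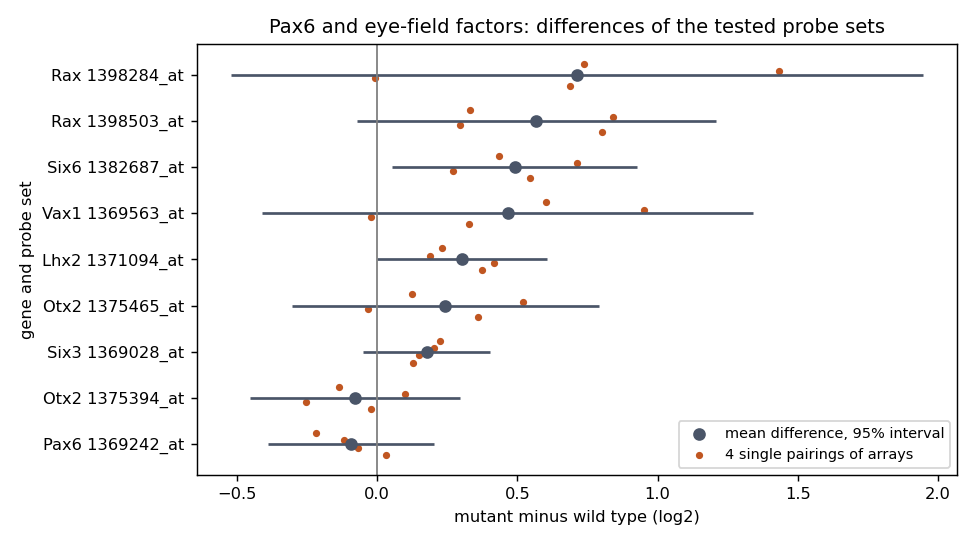
Mutant minus wild type (log2, horizontal axis) for the 9 tested probe sets, with the mean difference (grey point), its 95% interval from limma (line) and the difference of each mutant array from each wild-type array (4 orange points). All 4 points are above 0 for Rax 1398503_at, Six6, Lhx2 and Six3, and the Six6 interval runs from 0.05 to 0.93.

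Lhx2, a LIM-homeodomain factor required for the optic vesicle to develop and for the cortical primordium, was bright in every array. It was at 13.05 and 13.01 in wild type and at 13.42 and 13.24 in the mutant. Wild-type arrays were nearly identical, and both mutant arrays exceeded them, by at least 0.19. The difference was 0.30 (SE 0.10; 1.23-fold), with an interval from -0.002 to 0.61, and it ran from 0.21 to 0.39 with 1 array left out.

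Lhx9, its close relative, lay at the bottom of the scale. The values were 2.15 and 2.08 in wild type and 2.08 in both mutant arrays, all under the dim level of 3.21. No difference can be read there, and the probe set was not tested.

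Vax1, a homeodomain factor of the optic stalk and the ventral midline, was at 6.48 and 6.83 in wild type and at 6.81 and 7.43 in the mutant. Mutant replicate 2 was highest, and mutant replicate 1 lay 0.02 under wild-type replicate 2, so the groups overlapped. The difference of 0.46 (SE 0.29; 1.38-fold) had an interval from -0.41 to 1.34. It was 0.15 without mutant replicate 2 and 0.78 without mutant replicate 1.

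Otx2, an orthodenticle-type homeodomain factor, gave no common direction. The bright probe set 1375465_at was at 11.21 and 11.60 in wild type and at 11.57 and 11.73 in the mutant. The mean was 0.24 higher in the mutant (SE 0.18; interval from -0.31 to 0.79), with overlapping groups, and leaving out either wild-type array gave 0.05 (replicate 1) or 0.44 (replicate 2). The second probe set, 1375394_at, was at 4.53 and 4.76 in wild type and at 4.51 and 4.62 in the mutant. Its difference of -0.08 (SE 0.12) was 0.04 without wild-type replicate 2.

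The probe sets also differed in how their values moved across the arrays. As a description, each probe set was centred on its own mean and compared by the root mean square distance over the 4 arrays. Values were not scaled, so this distance reflects the size of the differences as well as their pattern. The closest pair was Rax 1398503_at and Six6 (0.10), and the most distant was Pax6 and Rax 1398284_at (0.55). Those last 2 had SDs over the 4 arrays of 0.09 and 0.59. Outside the 8 genes, the named genes closest to Rax 1398284_at, which had the largest difference, were Naif1 (0.03), Flrt1 (0.06) and Slc25a15 (0.06). Naif1, for example, was at 4.18 and 4.81 in wild type and at 4.78 and 5.57 in the mutant. Over 4 arrays this likeness is a description.

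Other genes of the eye field and optic vesicle had means on both sides. Of 20 listed, 13 had a probe set with a single symbol and 7 a tested one. Of their 10 tested probe sets, 4 had higher and 5 lower means and 1 (Tbx3) had equal means, with a median of -0.02. That Tbx3 probe set read 6.02 in each of the 4 arrays, and the other probe sets of Tbx3 were dim. In limma 0 passed the adjusted threshold and 0 had an unadjusted p up to 0.05. Mab21l2, an eye development gene, was at 6.09 and 5.88 in wild type and 6.09 and 7.20 in the mutant. Mutant replicate 2 stood above the other arrays, and the difference was 0.66 (SE 0.45). The neural progenitor factor Sox2 had higher means in its 3 tested probe sets, by 0.35, 0.22 and 0.22, and in the last of these both mutant arrays lay above both wild-type arrays. Sox3 was bright too and differed by -0.28 (SE 0.17), with both mutant arrays below both wild-type arrays by at least 0.002. Otx1, the relative of Otx2, differed by -0.50 (SE 0.43). The 2 probe sets of Mitf, the regulator of pigment cells and of the retinal pigment epithelium, differed by -0.42 (SE 0.24) and -0.30 (SE 0.21). In the second of these both mutant arrays were lower, by at least 0.003. In all, both mutant arrays lay above both wild-type arrays for 1 of the 10 probe sets and below them for 2. Over all tested probe sets 11.4% lay above and 11.8% below. Pax2 and Vax2, which mark the optic stalk and ventral retina, were dim, as were Tbx2, Tbx5, Zic2 and Hmx1.

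Within the Pax family, the 5 other genes with a probe set (Pax1, Pax2, Pax4, Pax8 and Pax9) were dim, and Pax6 was the only one tested. The next list held the relatives of Six3 and Six6, the Eya, Dach and Groucho-type cofactors, and Gmnn (-0.05 and -0.01). Of its 13 tested probe sets, 4 had higher and 9 lower means, with a median of -0.06. The largest of these differences were those of Tle4, a Groucho-type corepressor, at 0.36 (SE 0.09), Eya2, a coactivator for that family, at -0.34 (SE 0.28), and Tle5 at -0.27 (SE 0.34). A second Tle4 probe set differed by 0.21 and a second Eya2 probe set by -0.30. For the LIM-homeodomain family, its cofactors and the LIM-only Lmo genes, 10 of 18 had higher and 8 lower means, with a median of 0.01. Every tested Lmo4 probe set had a lower mean (from -0.28 to -0.0006). The tested LIM-homeodomain genes of the list, Lhx5 and Isl1 (0.01), had higher ones. Ldb2, a cofactor that bridges LIM-homeodomain proteins, differed by 0.76 (SE 0.21), Lhx5 by 0.31 (SE 0.26) and Ssbp2, a partner of Ldb proteins, by 0.30 (SE 0.11). A second Lhx5 probe set differed by 0.29, but a second Ssbp2 probe set differed by -0.03 (SE 0.08). In both families 0 passed the adjusted threshold in limma, with 1 probe set each at an unadjusted p up to 0.05 (Tle4 and Ldb2).

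**Figure D3:**
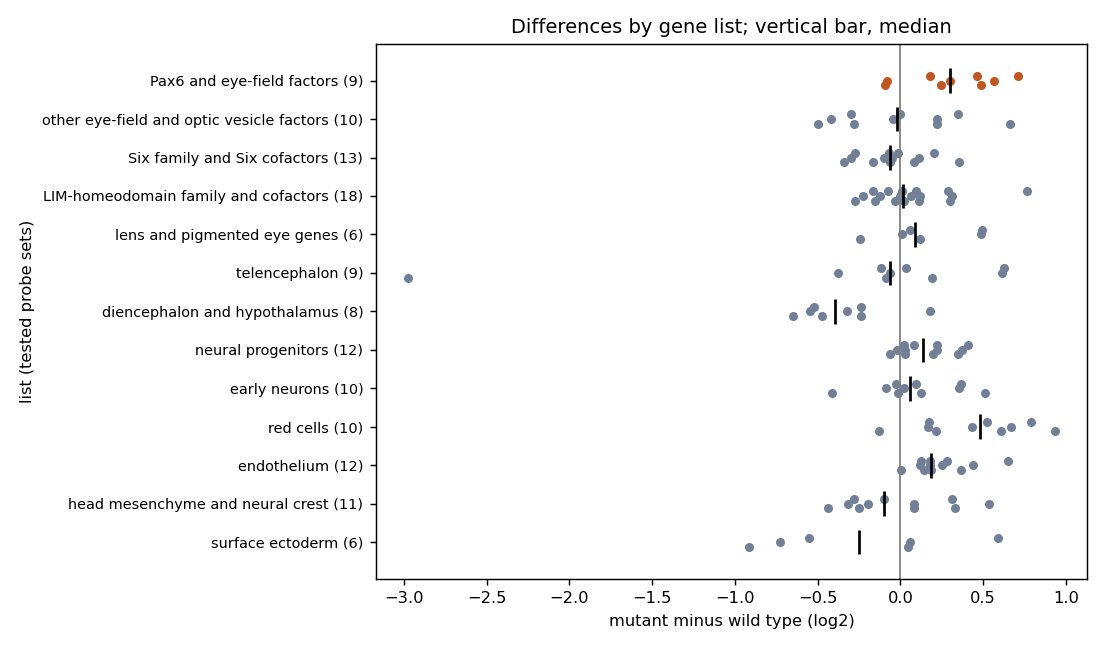
Mutant minus wild type (log2, horizontal axis) of every tested probe set, by gene list (vertical axis, number of tested probe sets in brackets), with the list's median as a vertical bar. The median is 0.30 for Pax6 and the eye-field factors, 0.48 for red cell markers, 0.18 for endothelium and -0.40 for the diencephalon and hypothalamus list.

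Tissue markers were read in the same arrays. Telencephalic Emx2 was at 10.59 and 10.54 in wild type and 10.50 and 10.45 in the mutant, Fezf2 was bright, and Emx1 was dim. The telencephalic list had 4 of 9 tested probe sets with higher and 5 with lower means. The log2 of its summed linear values was between 13.74 and 13.83 in wild type and between 13.65 and 13.79 in the mutant. Such sums, here and for the lists below, took the brightest probe set of each gene, dim genes included. The brightest genes therefore weigh most in them. The list's mean log2 value over tested genes did not overlap, at 9.841 and 9.874 in wild type and 9.495 and 9.656 in the mutant. The list's largest differences were those of Dmrta1 at -2.97 (SE 0.45), Nkx2-1 at 0.63 (SE 0.12) and Dlx1 at 0.61 (SE 0.13). That of Dmrta1 weighs most in the lower mean log2 value of the list, which was not computed without it. Among the brightest probe sets of the remaining tested genes, Fezf2 differed by 0.03, Nr2f2 by -0.12, Emx2 by -0.09 and Nr2f1 by -0.06. Nkx2-1 marks the ventral telencephalon and also the hypothalamus. Midbrain and hindbrain markers (En2, Egr2, Hoxb2 and Pou4f1) were dim in all arrays. The lens and pigment genes Cryaa, Crybb2, Cryab, Crygs, Foxe3, Tyr, Tyrp1 and Rpe65 were dim too. Of the tested ones, Maf (difference 0.49 in both probe sets), Pmel (0.12), Dct (0.06) and Prox1 (0.01) had higher means. Rlbp1 had a lower mean (-0.25). Wild-type replicate 1 and both mutant arrays were at 3.22, just above the dim level, and only wild-type replicate 2 was higher, at 3.71.

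Several marker lists also had different means in the same mutant arrays as Rax, Six6, Vax1 and Lhx2, and their part in those differences was not tested. Diencephalic and hypothalamic markers had 7 of 8 tested probe sets with lower means, but these belonged to only Irx3 and Tcf7l2, with Nkx2-2 on the other side at 0.18. Irx3 differed by -0.65 (SE 0.21) and Tcf7l2 by -0.52 (SE 0.35) in the probe sets with the largest differences. That Irx3 probe set was the only 1 of the list at an unadjusted p up to 0.05 in limma, and 0 passed the adjusted threshold. Barhl2, Gbx2, Olig3, Sim1, Otp and Gata2 were dim. The log2 of the list's summed values was between 11.88 and 11.95 in wild type and between 11.61 and 11.74 in the mutant.

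Red cell markers had 9 of 10 tested probe sets with higher means, and their log2 summed values were between 16.03 and 16.05 in wild type and between 16.24 and 16.25 in the mutant. The largest differences were those of Slc4a1 (0.94), Klf1 (0.79) and Alas2 (0.67). All 12 tested endothelial probe sets had higher means, with summed values between 11.57 and 11.59 in wild type and between 11.75 and 11.94 in the mutant. Neural progenitor markers had 10 of 12 with higher means, with summed values between 15.16 and 15.20 in wild type and between 15.29 and 15.31 in the mutant. The largest differences were those of Notch1 (0.41 and 0.37) and Sox2 (0.35, 0.22 and 0.22), whose probe sets were also counted in the eye-field list above. Cdh2 differed by 0.20 and -0.02, Nes by 0.08, Hes5 and Vim by 0.03, Sox1 by 0.02 and Hes1 by -0.06. In each of these 3 lists 0 probe sets passed the adjusted threshold in limma, and at an unadjusted p up to 0.05 there were 3 red cell, 1 endothelial and 0 progenitor probe sets, all with higher means.

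Surface ectoderm markers had 3 of 6 with lower means (Epcam at -0.92, Krt18 at -0.73, Krt8 at -0.55), while Cdh1 differed by 0.59. At an unadjusted p up to 0.05 in limma, 2 were lower (Epcam and Krt18) and 1 was higher (Cdh1). The list's summed values overlapped, between 8.78 and 9.08 in wild type and between 8.72 and 8.84 in the mutant. Its mean log2 value over tested genes did not overlap, at 5.89 and 5.66 in wild type and 5.45 and 5.61 in the mutant. Head mesenchyme and neural crest markers had 6 of 11 with lower means. Their summed values were between 12.72 and 12.77 in wild type and between 12.43 and 12.58 in the mutant. The brightest of these probe sets, that of Col3a1, weighs most in the sum. It was at 12.339 and 12.344 in wild type and 12.007 and 12.171 in the mutant. The list's mean log2 value over tested genes overlapped, at 7.893 and 7.895 in wild type and 7.636 and 8.014 in the mutant. Early neuron markers had 6 of 10 with higher means and overlapping summed values, between 11.56 and 11.73 in wild type and between 11.62 and 11.78 in the mutant. At an unadjusted p up to 0.05 in limma, 1 of them was higher (Dcx) and 1 lower (Nefm). In each of these 3 lists 0 probe sets passed the adjusted threshold.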

How the data were processed

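RNA of E11.5 rat telencephalon was labelled from 10 µg of total RNA and hybridised to 4 Affymetrix arrays, per the labels' protocols. The authors deposited log2 values, 1 per probe set and array, made by GCRMA (per the submitters' processing notes; version not given in the sources used here). The range of the values shows the log2 scale. Of 31099 probe sets, 57 controls were left out. Symbols came from the platform annotation (20826 probe sets with 1 symbol, 436 with several, 9780 with none); the Entrez identifiers of all 10 probe sets matched the RefSeq table. Probe sets with a mean under the 40th percentile (3.21) were called dim and not tested. limma (version 3.58.1, R 4.3.3) was fitted to the remaining 18625 with genotype as the single term, with Benjamini-Hochberg adjustment at 0.05. SE and 95% intervals are moderated. The procedure was tested on simulated data with known differences. The simulated noise had 1 common SD for all probe sets, unlike these data. The simulation therefore does not show how many true differences the fit would miss here. The genes and lists were chosen with earlier results of these data known. All probe sets of the 8 genes are named. From other lists the text names mainly the genes with the 3 largest differences and dim markers; further names (such as Emx2, Fezf2, Nkx2-2, Sox2 and Cdh1) were picked with their values in view. The shared promoter run was also found after the windows were examined. The number of arrays limits the precision.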

Additional observations from a re-analysis of the deposited data

How the results depend on the processing

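Of 105 values of the 9 tested probe sets under alternative settings, 104 kept their direction and their side of the threshold, and the lowest adjusted p of any was 0.727 (limma). The exception was Otx2 1375394_at, whose difference was 0.038 without wild-type replicate 2 and ran down to -0.20 (without wild-type replicate 1); the cause was not tested. The number of these probe sets with lower means was 2, and 1 with the filter at the 60th percentile and with each gene represented by its brightest probe set, where fewer probe sets enter. It ran from 1 to 2, the higher count from 7 to 8, and the median difference from 0.16 (without mutant replicate 2) to 0.44 (without wild-type replicate 2) when 1 array was left out. In the whole table, 0 probe sets were called by limma, against 1 with the filter at the 60th percentile, 2 after quantile normalization, 2 after median centring and 2 without zero-variance probe sets, a setting chosen after seeing the data; none was a probe set of the 8 genes. The median of all tested probe sets moved by under 0.1 in each setting. With the replicate number as a block, 0 were called and 1194 had an unadjusted p up to 0.05, against 680, and the differences had smaller SE for Rax 1398284_at (0.06 against 0.40), Vax1 (0.11 against 0.29) and Six6 (0.07 against 0.14), each with an adjusted p of 0.736. At an unadjusted p up to 0.05, 1 of the 9 probe sets (Six6) stood in the reported fit and 4 with the block (Rax 1398284_at, Six6, Lhx2 and Vax1). The other settings gave from 0 (without wild-type replicate 1 or mutant replicate 1) to 2, not always Six6. Replicate 2 minus replicate 1 correlated between the genotypes across 18625 probe sets (Pearson r = 0.435, genes not being independent replicates), but the labels name no shared litter, batch or day, so the numbers were not taken to pair the arrays.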
